A study of Mus musculus with 12 samples.

Results

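The LIM-only genes Lmo1, Lmo2, Lmo3 and Lmo4 and the LIM-domain-binding genes Ldb1 and Ldb2 were followed through the embryonic mouse retina, as 6 of the 19954 genes listed for both sexes. Lmo2 was chosen by its read counts, which were higher in the mutants, so its difference between genotypes is given below as a description with no test. The other 5 were taken by family name. All 6 passed the filter on low counts.

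Bulk RNA was sequenced from retinas at stage E15.5 of embryonic development, in libraries each made from a pool of 12 retinas of 1 sex, with several litters pooled. Wildtype and mutant retinas of each sex made 4 groups of 3 libraries, numbered 4, 5 and 6, all labelled C57BL/6. The mutants carried floxed Tbr2 (listed as Eomes) and Six3-Cre, a transgene in which Six3 regulatory sequence drives Cre recombinase in the eye field. The wildtype labels name neither a floxed allele nor Cre, so effects of Cre itself and of Tbr2 loss cannot be told apart. Since every library is a pool, p-values here refer to variation among pools and not among embryos.

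LIM-only proteins are small adaptors made of a pair of LIM domains, with no DNA-binding domain of their own. LDB1 and LDB2 bind LIM domains and also bind each other, and so bridge LIM-only or LIM-homeodomain proteins into larger transcription complexes. LMO2 is best known in blood precursors and endothelium, where it joins TAL1 or LYL1, GATA factors and E proteins, with LDB1, on DNA. LIM-homeodomain factors such as LHX2 and ISL1, which build the eye and its neurons, use the same LDB partners. In neural tissue LMO4 can compete with them for LDB proteins.

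Library totals ran from 18514607 to 27072825 counts. Eomes, the targeted gene, stood at 61.7 ± 8.77 CPM (the count divided by the library total and scaled) over wildtype and 19.1 ± 6.65 CPM over mutant libraries (SD, n = 6 each), with every mutant library below every wildtype library. The retinal markers Pax6 and Atoh7 were abundant in all 12 libraries, with a lowest value of 491 CPM, for Atoh7. The libraries fell into 5 with high mt-Nd6 (373 to 484 CPM) and 7 with low mt-Nd6 (9.70 to 48.4 CPM), and both genotypes were in both. Lens RNA varied widely, with summed lens markers between 7.40 and 2096 CPM, and was highest by the crystallin Cryaa in wildtype male 5, mutant male 5 and mutant female 5.

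The order of the members is given on the deposited FPKM scale, which divides by gene length. Ldb1 was the most abundant at a mean of 128 FPKM over the 12 libraries, and no library of any other member reached its lowest value of 106 FPKM. Lmo2 (29.9 FPKM) and Lmo4 (26.8 FPKM) came next, followed by Lmo1 (11.4 FPKM), Ldb2 (7.33 FPKM) and Lmo3 (0.909 FPKM). Lmo2 and Lmo4 did not separate: in wildtype Lmo4 stood at 27.2 ± 2.58 FPKM and Lmo2 at 24.4 ± 2.28 FPKM, with overlapping ranges. In mutants the order was turned, with Lmo2 at 27.9 to 39.9 FPKM and Lmo4 at 21.4 to 32.2 FPKM, again overlapping. Lmo1, Ldb2 and Lmo3 kept non-overlapping FPKM ranges, each lower than the one before it.

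**Figure D1:**
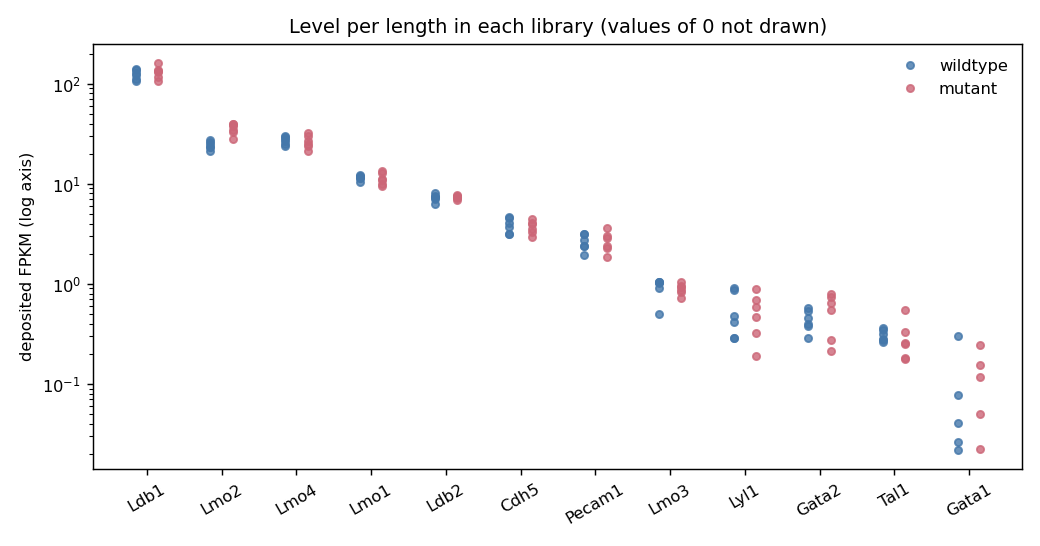
Deposited FPKM of each member and of Pecam1, Cdh5, Lyl1, Gata2, Tal1 and Gata1 in wildtype and mutant libraries, on a log axis. Points are libraries, and a library with no reads for a gene is not drawn. Ldb1 lies above all others, Lmo2 and Lmo4 share a range, and Lmo3 is lowest of the members.

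Lmo2 lies on mouse chromosome 2 (mm10, 103957986 to 103981878, plus strand) and was higher in mutants of both sexes. Wildtype male libraries 4, 5 and 6 held 42.5, 40.1 and 46.9 CPM, and mutant male libraries 56.6, 67.5 and 58.4 CPM. Wildtype female libraries held 36.0, 44.6 and 39.4 CPM, and mutant female libraries 47.6, 68.1 and 64.7 CPM. No mutant library overlapped a wildtype library, although the lowest mutant (female 4) was close to the highest wildtype (male 6). Each value rested on 789 to 1594 reads. Of all 15467 genes tested, 0.0776% were higher in mutants with no overlap of the 6 and 6 libraries. Since this contrast chose Lmo2, nothing is read from that share.

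Lmo2 averaged 41.6 ± 3.90 CPM in wildtype and 60.5 ± 7.87 CPM in mutants (SD, n = 6 each), a log2 fold change of 0.54 (SE 0.09), or 1.45-fold. In males the means were 43.2 ± 3.43 and 60.8 ± 5.86 CPM (n = 3 each), with a log2 fold change of 0.50 (SE 0.11). In females they were 40.0 ± 4.33 and 60.1 ± 11.0 CPM, with a log2 fold change of 0.59 (SE 0.13). The authors' deposited table gives smaller Lmo2 log2 fold changes, of 0.43 for both sexes, 0.37 for males and 0.39 for females. DESeq2 run here on the same counts gave 0.54 for both sexes, so the deposited values may be estimated in another way, which was not tested. From bulk RNA, more cells with Lmo2 and more Lmo2 RNA per cell cannot be told apart.

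**Figure D2:**
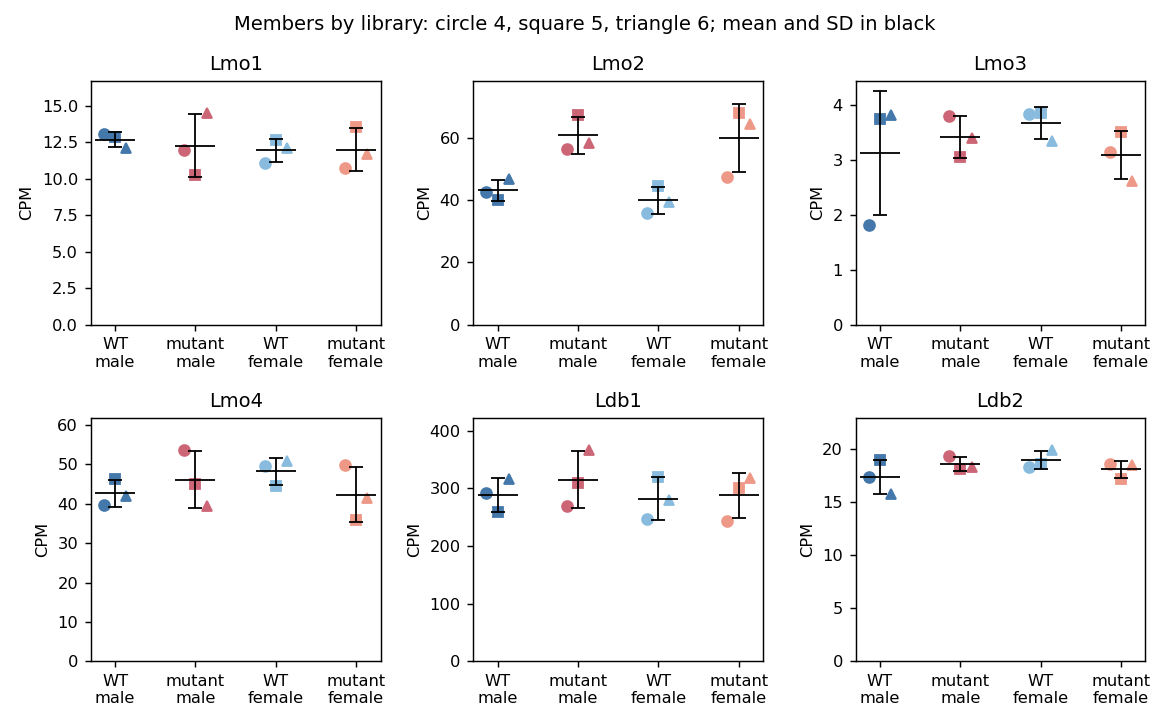
CPM of the 6 members in each library by genotype and sex, with points for libraries and each axis starting at 0. Lmo2 is the member whose mutant libraries all lie above its wildtype libraries, from 47.6 CPM against at most 46.9 CPM.

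No sex difference was called for Lmo2. The difference of the female from the male genotype effect was 0.10 on the log2 scale (SE 0.18), with a Benjamini-Hochberg adjusted p of 1.0 in edgeR's quasi-likelihood fit. Between wildtype females and wildtype males the Lmo2 log2 difference was -0.09 (SE 0.13, adjusted p = 1.0 by the same edgeR test). None of the 6 members passed either test, at an adjusted or an unadjusted p of 0.05, where 0% of all genes tested were called for the interaction (1.73% unadjusted) and 0.00647% for sex (1.49% unadjusted). Wildtype females and males overlapped for all 6 members, while 10% of all genes did not overlap. Lmo4 had the smallest interaction p of the members, with a log2 difference of -0.30 (SE 0.21, unadjusted p = 0.184 by edgeR's quasi-likelihood test).

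The relatives of Lmo2 had no called difference. Of the 5 other members, 0 were called between the genotypes in both sexes by edgeR, 0 had an unadjusted p under 0.05, and 0 were called by DESeq2 or limma voom, where edgeR called 0.0259% of all genes tested and 2.92% had an unadjusted p under 0.05. The same counts of 0 held for edgeR in males (0% of genes tested called, 1.41% unadjusted) and in females (0.00669% called, 2.63% unadjusted). For 0 of the 5 did mutants and wildtype separate in males or in females, against 5.38% and 8.09% of all genes tested. With so few calls over all genes, a count of 0 among 5 is near the background.

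Lmo1, a neural LIM-only factor (chromosome 7, 109138572 to 109170308, minus strand), held 13.0, 12.9 and 12.1 CPM in wildtype males and 12.0, 10.2 and 14.5 CPM in mutant males. The wildtype female libraries held 11.1, 12.7 and 12.1 CPM of Lmo1, and the mutant ones 10.7, 13.6 and 11.7 CPM. The mutants spanned the whole wildtype range and held both the lowest and the highest library. The means were 12.3 ± 0.717 and 12.1 ± 1.65 CPM (n = 6 each), a log2 fold change of -0.03 (SE 0.10, adjusted p = 0.963 by edgeR's quasi-likelihood test).

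Lmo3 (chromosome 6, 138362918 to 138581968, minus strand) was the scarcest member, with 35 to 104 reads per library. Wildtype males held 1.82, 3.75 and 3.82 CPM and mutant males 3.81, 3.05 and 3.40 CPM, so that 1 wildtype library, male 4, was low. Wildtype females held 3.84, 3.86 and 3.35 CPM and mutant females 3.15, 3.50 and 2.62 CPM. The genotypes overlapped in both sexes. The log2 fold change of Lmo3 was -0.07 (SE 0.19, adjusted p = 0.949 by edgeR's quasi-likelihood test), and -0.21 without wildtype male 4.

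Lmo4 (chromosome 3, 144188530 to 144205220, minus strand), which binds DEAF1, CtIP (Rbbp8) and BRCA1 beside LDB1, held 39.6, 46.3 and 41.8 CPM in wildtype males and 53.7, 44.9 and 39.4 CPM in mutant males. Female libraries held 49.4, 44.4 and 50.7 CPM when wildtype and 49.7, 35.8 and 41.4 CPM when mutant. The genotypes overlapped within each sex. Its log2 fold change was -0.04 over both sexes (SE 0.11, adjusted p = 0.947 by edgeR's quasi-likelihood test), 0.12 in males and -0.19 in females.

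Ldb1 (chromosome 19, 46032593 to 46045214, minus strand), the shared LDB partner, held 291, 258 and 316 CPM in wildtype males and 269, 308 and 367 CPM in mutant males. Female libraries held 247, 320 and 280 CPM when wildtype and 244, 301 and 318 CPM when mutant. Mutant male 6 was highest, and all other mutant libraries lay within or just below the wildtype range. The means were 285 ± 29.8 and 301 ± 42.6 CPM (n = 6 each), a log2 fold change of 0.07 (SE 0.09, adjusted p = 0.918 by edgeR's quasi-likelihood test).

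Ldb2 (chromosome 5, 44472133 to 44799707, minus strand), the second LDB protein, was the most even member. It held 17.4, 18.9 and 15.8 CPM in wildtype males and 19.3, 18.1 and 18.3 CPM in mutant males. Female libraries held 18.3, 18.5 and 19.9 CPM when wildtype and 18.6, 17.2 and 18.4 CPM when mutant. All 6 mutant libraries lay inside the wildtype range, and the log2 fold change was 0.0072 (SE 0.08, adjusted p = 0.988 by edgeR's quasi-likelihood test).

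**Figure D3:**
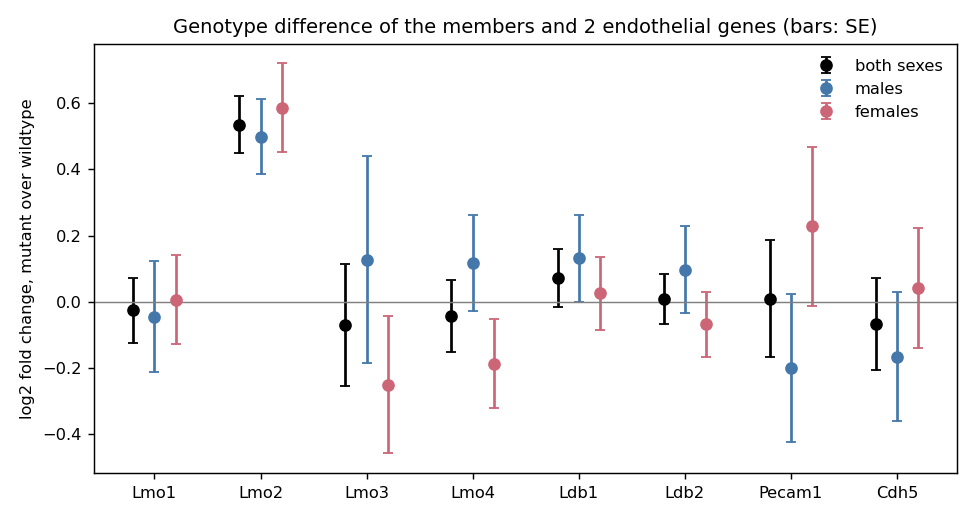
Log2 fold change of mutant over wildtype for the members, Pecam1 and Cdh5, in both sexes and in each sex, with bars for the standard error. Lmo2 lies between 0.50 and 0.59, and the other genes lie between -0.25 and 0.23.

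The make-up of the LIM-only family moved with Lmo2. Of the summed FPKM of the 4 LIM-only genes, Lmo2 made up 38.1% ± 3.33 in wildtype and 47.7% ± 5.09 in mutants (SD, n = 6 each), with overlapping ranges. Lmo4 made up 42.5% ± 3.86 and 35.7% ± 5.64, Lmo1 18.0% and 15.3%, and Lmo3 1.45% and 1.20%. The ratio of Lmo2 to Ldb1 FPKM was 0.196 ± 0.00772 in wildtype and 0.272 ± 0.0320 in mutants. Its lowest mutant value, 0.214, was above its highest wildtype value, 0.209. Since Lmo2 enters both measures, they restate its difference.

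Endothelial RNA was set beside Lmo2 because LMO2 is known from vessels. Pecam1, an adhesion molecule of endothelial junctions, held 9.51, 10.9 and 8.31 CPM in wildtype males and 10.4, 8.18 and 6.37 CPM in mutant males. Pecam1 was at 10.8, 8.18 and 6.64 CPM in the wildtype females, while the mutant females were at 9.89, 12.4 and 7.77 CPM. The Pecam1 log2 fold change was 0.0084 (SE 0.18, adjusted p = 0.995 by edgeR's quasi-likelihood test), and its genotypes overlapped in each sex.

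Cdh5, the endothelial cadherin, held 18.4, 16.2 and 12.5 CPM in wildtype males and 16.1, 11.8 and 13.9 CPM in mutant males. Cdh5 was at 18.2, 14.7 and 12.5 CPM in the wildtype females, while the mutant females were at 17.8, 15.9 and 13.2 CPM. Its log2 fold change was -0.07 (SE 0.14, adjusted p = 0.937 by edgeR's quasi-likelihood test). The ratio of Lmo2 to Cdh5 FPKM was 6.50 ± 1.51 in wildtype and 9.85 ± 2.47 in mutants. The FPKM ratio of Ldb2 to Cdh5 was 1.93 ± 0.372 and 2.02 ± 0.301.

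All 24 endothelial markers were tested and detected in every library. Of these, 13 were higher and 11 lower in mutants, with a median log2 fold change of 0.0049 beside -0.0081 over all genes tested. In males 6 were higher and 18 lower (median -0.12), and in females 15 were higher and 9 lower (median 0.05), while Lmo2 was higher in the mutants of both. Over both sexes none was called by edgeR, DESeq2 or limma voom, and 1 had an unadjusted p under 0.05 by each tool, Ramp2, with means of 3.10 (wildtype) and 2.06 CPM (mutant). Of all genes tested edgeR called 0.0259%, and 2.92% had an unadjusted p under 0.05, so a count of 0 called among 24 is near the background. The summed level of the 24 markers ran from 293 to 344 CPM in wildtype and from 304 to 345 CPM in mutants. Kdr, the VEGF receptor, made up 55.4 to 61.1% of that sum, and neural progenitors of the retina also express it. With the summed endothelial level as a covariate the Lmo2 log2 fold change was 0.54, and with the sum without Kdr, a choice made after seeing the data, it was 0.53.

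Over both sexes no neuronal marker was called either. Of the 20 ganglion cell and neuronal markers, 7 were higher and 13 lower in mutants, with a median log2 fold change of -0.03. By edgeR, DESeq2 and limma voom 0 were called, and 2, Nefm and Ebf3, had an unadjusted p under 0.05 by each tool, both being higher in mutants. Over all genes tested edgeR called 0.0259%, and 2.92% had an unadjusted p under 0.05, so a count of 0 called among 20 is near the background. The log2 fold change was 0.19 for Nefm (SE 0.06) and 0.20 for Ebf3 (SE 0.05), with an adjusted edgeR p of 0.918 for both. Ebf3, a transcription factor gene, was from 308 to 365 CPM in wildtype and from 376 to 425 CPM in mutants, with no overlap, as for Lmo2 and for 0.0776% of all genes tested. The summed level of the list ran from 6976 to 7317 CPM in wildtype and from 6888 to 7963 CPM in mutants. With that sum as a covariate the Lmo2 log2 fold change was 0.54.

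Within a genotype, Lmo2 was set against these summed levels over 6 libraries by exact permutation, two-sided, both as log2 CPM after TMM scaling. Against the endothelial sum, Pearson's r was -0.61 in wildtype (exact permutation p = 0.208, adjusted 0.788; Spearman's rho -0.54, p = 0.297, adjusted 0.746). In mutants r was 0.32 (exact permutation p = 0.525, adjusted 0.788; rho 0.37, p = 0.497, adjusted 0.746). The sign thus differed between the genotypes, and the mutant r became -0.15 without Kdr and -0.36 with only Pecam1 and Cdh5.

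Against the neuronal sum, r for Lmo2 was -0.54 in wildtype (exact permutation p = 0.257, adjusted 0.788; rho -0.31, p = 0.564, adjusted 0.796). In mutants it was 0.07 (exact permutation p = 0.910, adjusted 0.949; rho 0.20, p = 0.714, adjusted 0.902). Without the 2 libraries farthest from the median of the sum, the 4 values of r became -0.46 and 0.92 for endothelial RNA in wildtype and mutants, and 0.64 and -0.21 for neuronal RNA. No relation of Lmo2 passed the adjustment, and r changed in sign or size without those libraries. With 6 libraries the smallest possible p of a rho was 0.00278, so a single rho could not pass among 24 relations. A single r could pass only if no other pairing of the libraries reached it in size. Of 24 relations over all members, 1 had an unadjusted Pearson p under 0.05 by exact permutation, Lmo1 with the neuronal sum in mutants (r = 0.85, p = 0.0375, adjusted 0.767, rho = 0.77, p = 0.103, adjusted 0.746, and r = 0.34 without 2 libraries), and 0 passed the adjustment. Wildtype had 3 libraries in each mt-Nd6 set and mutants 2 and 4, too few for a correlation within a set.

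**Figure D4:**
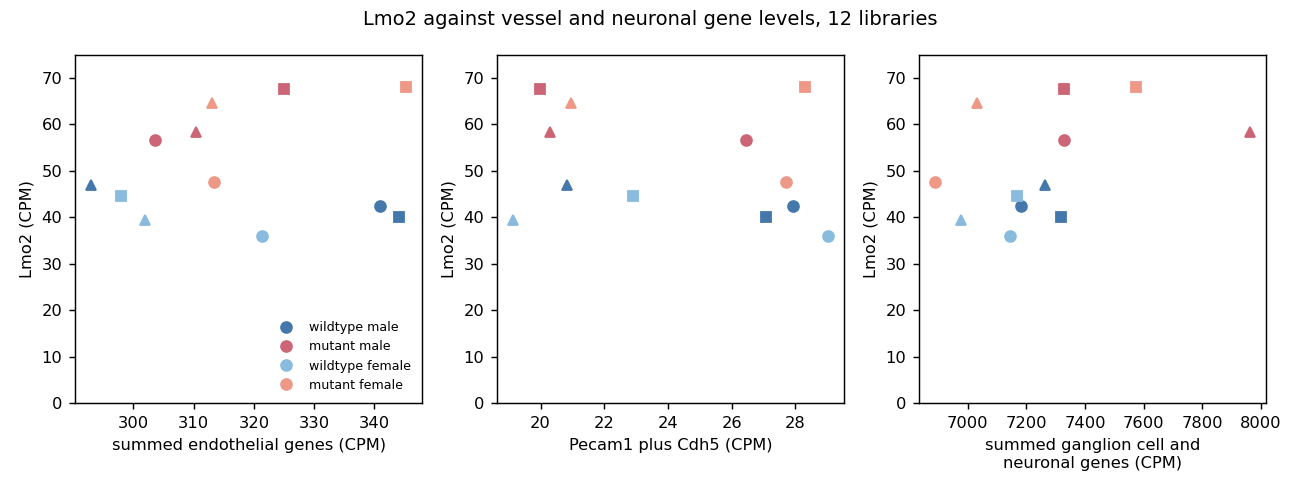
Lmo2 CPM against the summed endothelial CPM, Pecam1 plus Cdh5 CPM, and the summed ganglion cell and neuronal CPM, on linear axes. Points are libraries, by genotype, sex and library number. Mutant points lie above wildtype points in each panel, since no mutant library overlapped a wildtype library in Lmo2.

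Other cell types that can carry Lmo2 RNA were read from their markers. Of 12 erythroid genes 3 were higher and 9 lower in mutants (median log2 fold change -0.18), with a summed level of 350 to 659 CPM in wildtype and 295 to 576 CPM in mutants. Of 13 microglial genes 11 were higher (median 0.15), at 59.8 to 69.0 CPM summed in wildtype and 65.5 to 80.6 CPM in mutants. All 13 tested lens genes were higher over both sexes (median 1.54). Their summed level overlapped between the genotypes, at 11.4 to 860 CPM in wildtype and 7.40 to 2096 CPM in mutants. Mutant females held 13.9, 2096 and 12.3 CPM of it and wildtype females 238, 173 and 11.4 CPM. The 2 highest Lmo2 values, in mutant male 5 and mutant female 5, came from libraries with high lens RNA. Mutant female 6 held 64.7 CPM of Lmo2 at 12.3 CPM of summed lens markers, and wildtype male 5 held 40.1 CPM at 860 CPM. Without the 3 libraries highest in Cryaa the Lmo2 log2 fold change was 0.44, with mutant male 4, at 575 CPM of summed lens markers, still included. The part of erythroid, microglial and lens RNA in the Lmo2 level was not tested. Over both sexes, none of these genes was called by edgeR, DESeq2 or limma voom, and none had an unadjusted p under 0.05. Of all genes tested edgeR called 0.0259%, and 2.92% had an unadjusted p under 0.05. In females the microglial gene Fcer1g (log2 fold change 0.69, higher in mutants) and the erythroid gene Epor (-1.19, lower) had an unadjusted edgeR p under 0.05 and did not overlap between the genotypes. Neither was called by edgeR after adjustment. Among all genes tested in females, 8.09% did not overlap and 2.63% had an unadjusted p under 0.05. In males Fcer1g (-0.28) and Epor (-0.04) were both lower in mutants, with overlap. The microglial genes C1qa (0.47) and Spi1 (0.36) did not overlap in males, where 5.38% of all genes did not.

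Of the remaining marker lists, medians were -0.04 for 9 pericyte and mesenchyme genes, -0.12 for 12 amacrine genes and 0.08 for 12 progenitor genes. None of these was called by any of these tools over both sexes, and 1 pericyte and 1 amacrine gene had an unadjusted p under 0.05. For all genes tested the edgeR shares were 0.0259% called and 2.92% with an unadjusted p under 0.05. The 6 genes of intrinsically photosensitive ganglion cells were all lower (median -1.07), and edgeR called Eomes among them (log2 fold change -1.76, adjusted p = 0.000484), while DESeq2 called 4 of them.

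The blood and endothelial partners of LMO2 were scarce in these retinas. On the FPKM scale Tal1 averaged 0.299, Lyl1 0.532, Gata2 0.486 and Gata1 0.0879 over the 12 libraries, beside 29.9 for Lmo2. Wildtype and mutant means were 1.29 ± 0.167 and 1.23 ± 0.586 CPM for Tal1, and for Gata2 1.42 ± 0.347 and 1.73 ± 0.777 CPM. Gata1 and Gata3 were too low to test. The E-protein gene Tcf3, by contrast, averaged 337 ± 20.4 CPM (wildtype) and 381 ± 64.1 CPM (mutant), and Ssbp3, whose product stabilises LDB1, held 414 ± 17.0 and 429 ± 36.3 CPM.

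Of the 15 listed partners 13 were tested, 7 were higher and 6 lower, and the median log2 fold change was 0.0031. Tal2 had the highest log2 fold change, 0.85 (SE 0.44), from means of 0.305 CPM (wildtype) and 0.576 CPM (mutant), and Runx1 the lowest, -0.33 (SE 0.21). Over both sexes, none of the 13 was called or had an unadjusted p under 0.05 by edgeR, DESeq2 or limma voom. For all genes tested the edgeR shares were 0.0259% called and 2.92% with an unadjusted p under 0.05.

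Lyl1 and Gata2, at 8 to 48 reads per library, had genotype differences of opposite sign in the 2 sexes. In males the log2 fold change was 0.85 for Lyl1 (SE 0.36, unadjusted p = 0.0476) and 0.79 for Gata2 (SE 0.33, unadjusted p = 0.0446) by edgeR, with every mutant library above every wildtype library. In females it was -1.03 for Lyl1 (SE 0.53) and -0.44 for Gata2 (SE 0.40), with overlap. Among all genes tested in males, 5.38% did not overlap between the genotypes and 1.41% had an unadjusted p under 0.05 by edgeR. In females the partners Tal1 (log2 fold change -0.26) and Runx1 (-0.71) were lower in mutants with no overlap, against 8.09% of all genes tested. In males Tal1 (0.06) and Runx1 (0.04) overlapped. The interaction of genotype and sex had an unadjusted edgeR p of 0.0153 for Lyl1 and 0.0365 for Gata2, and an adjusted p of 1.0 for both, so neither passed. Lmo2 was higher in the mutants of both sexes.

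Over both sexes the LIM-homeodomain genes, whose products share LDB1, had no called difference. Of 12 listed, 8 were tested, 3 were higher and 5 lower (median log2 fold change -0.03). Lhx2, an eye-field and progenitor factor, averaged 274 ± 4.53 CPM (wildtype) and 293 ± 36.9 CPM (mutant), and Isl1, a ganglion cell factor, 163 ± 5.13 and 159 ± 13.9 CPM. Of the 4 genes for LMO4 partners and LDB turnover 1 was higher and 3 lower (median -0.08). Rlim, a ubiquitin ligase for LDB proteins, averaged 76.9 ± 11.6 CPM (wildtype) and 68.3 ± 21.0 CPM (mutant). Over both sexes, none of these 12 genes was called, or had an unadjusted p under 0.05, by edgeR, DESeq2 or limma voom. The edgeR shares over all genes tested were 0.0259% called and 2.92% with an unadjusted p under 0.05. In males Lhx3 had a log2 fold change of 0.72 (SE 0.29, unadjusted p = 0.040 and adjusted p = 0.994 by edgeR), with no overlap of the genotypes, and in females of 0.07. Of all genes tested in males, 5.38% did not overlap and 1.41% had an unadjusted p under 0.05.

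Library sets with high and low mt-Nd6 RNA separated 2 members that genotype did not. Lmo4 ran from 46.3 to 53.7 CPM in the 5 libraries high in mt-Nd6 and from 35.8 to 44.9 CPM in the 7 low ones. Ldb1 went the other way, at 244 to 280 CPM in the high set and 291 to 367 CPM in the low set. For these 2 of 6 members the sets did not overlap, and the same held for 15.7% of all genes tested, made up of 9.35% higher and 6.35% lower in the high set. The other 4 members overlapped between the sets when the genotypes were pooled. What the mt-Nd6 difference stands for was not tested.

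Lmo2 was also higher in mutants within both sets, which follows from its lack of overlap over all 12 libraries and is given as a description. In the high set it was 36.0 to 40.1 CPM in wildtype and 47.6 to 56.6 CPM in mutants, and in the low set 42.5 to 46.9 and 58.4 to 68.1 CPM. Within each genotype Lmo2 was thus higher in every library of the low set than in any of the high set, and the low set held 4 of 6 mutant and 3 of 6 wildtype libraries. The log2 fold change was 0.41 within the high set, 0.54 within the low set, and 0.50 with the set as a term over all libraries.

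**Figure D5:**
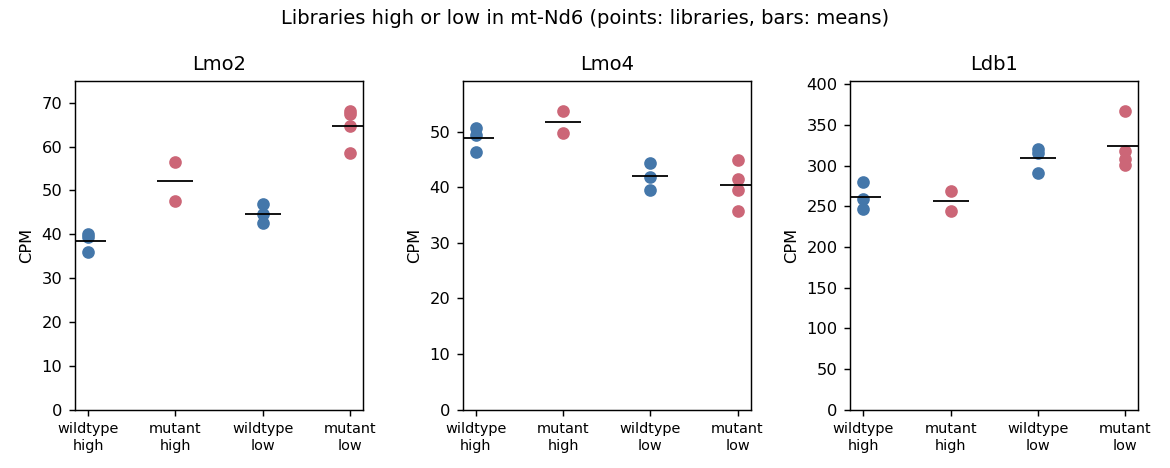
CPM of Lmo2, Lmo4 and Ldb1 in libraries high or low in mt-Nd6, split by genotype, with points for libraries and bars for means. Lmo4 is higher and Ldb1 lower in the high set, while Lmo2 is higher in mutants within both sets, as over all 12 libraries.

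The genes whose log2 CPM followed a member most closely over the 12 libraries were sought among 12502 genes and are described only, since these libraries share genotype and library set. For Lmo2 they were Kcnh1 (r = 0.88), Tnc (0.87), Bet1l (0.85), Ctsz (0.82) and Six3os1 (0.82). Kcnh1, a voltage-gated potassium channel gene, averaged 4.96 CPM (wildtype) and 7.86 CPM (mutant). Six3os1, the opposite-strand transcript of Six3, averaged 830 and 920 CPM.

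For Ldb1 the closest were Gigyf1, Mbd6 and Ano8, each at r = 0.97, and for Lmo4 Ccdc138 (0.97), Yipf5 (0.97) and Riok3 (0.96). For Lmo1 they were H2-T23 (0.87), Tmem140 (0.87) and Creb3l2 (0.83). For Lmo3 they were Tada1 (0.90), Pld1 (0.89) and Elavl1 (0.89), and for Ldb2 Mpp7 (0.91), Glrb (0.90) and Exoc2 (0.89).

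Genes on the opposite strand overlap some members, and whether the counting used strand is not given in the sources used here. At Lmo2 the overlapping gene 4931422A03Rik had 9 to 28 reads per library, against 789 or more for Lmo2. At Ldb1 the overlapping gene Pprc1 had 1277 to 1743 reads per library. Antisense genes also overlap Lmo1, Lmo3 and Ldb2. Genes on the same strand overlap Lmo4 and Ldb2, and their reads were not examined.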

How the data were processed

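RNA was measured in 12 pooled libraries of mouse retina. The submitters' processing notes name CASAVA, STAR 2.5, HTSeq 0.6.1 and DESeq2, and the genome build mm10. The annotation release is not given in the sources used here. The authors deposited raw counts per gene and library, the counts scaled by library as a normalised signal, FPKM values scaled by gene length and library total, and log2 fold changes with p-values. Here CPM values are counts over the library total, and FPKM was used for levels between genes alone.

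Counts were tested with edgeR 4.0.16 in R 4.3.3 (TMM, filterByExpr, quasi-likelihood, two-sided, Benjamini-Hochberg over all genes tested, threshold 0.05), with genotype and sex as terms. SE is the absolute log2 fold change divided by the root of the F statistic. DESeq2 1.42.0, limma voom 3.58.1, a replicate block, library sets, covariates and leaving out libraries were alternatives. The scripts were tested on simulated data. The members, gene lists and tests were chosen with earlier results of these data known. Named genes were all members, Pecam1 and Cdh5, called genes and up to 4 of the most abundant genes of each list, and the 5 (Lmo2) or 3 genes most like each member. Ramp2, Nefm, Ebf3, Tal1, Lyl1, Gata1, Gata2, Gata3, Tal2, Runx1, Lhx3, Fcer1g, Epor, C1qa, Spi1 and the retinal markers were named after their values were seen.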

Additional observations from a re-analysis of the deposited data

Results flagged for a closer look

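Lmo3 in wildtype male library 4 stood at 1.82 CPM, apart from the other 5 wildtype libraries, whose nearest value was 3.35 CPM. The gap was 0.748 of the whole wildtype range, above Dixon's limit for 6 samples. This value rests on 35 reads. It was 1 of 12 groups of 6 libraries checked, where chance sets apart about 1 group in 20.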

How the results depend on the processing

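The Lmo2 difference ran from 0.41 to 0.59 on the log2 scale under the 24 alternatives over both sexes. Those run within a sex gave 0.42 to 0.55 in males and 0.49 to 0.71 in females. Its direction did not change, but this contrast chose Lmo2, whose genotypes did not overlap. Leaving out libraries or taking a subset could thus hardly turn the direction, and nothing is read from it. The lowest value over both sexes came from libraries high in mt-Nd6. No other member was called under any setting run.

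Values near 0 changed sign. Over both sexes Lmo4 became 0.0038 with the mt-Nd6 set as a term, 0.088 within the high set and 0.055 without the 3 lens-rich libraries. Ldb1 became -0.037 and Ldb2 -0.0097 within the high set, and Lmo1 1e-04 within the low set. Leaving out 1 library at a time gave -0.036 to 0.034 for Ldb2, -0.084 to 0.032 for Lmo1, -0.21 to 0.001 for Lmo3 and -0.12 to 0.023 for Lmo4. In males it gave -0.18 to 0.073 for Lmo1, -0.14 to 0.29 for Lmo3 and -0.021 to 0.22 for Lmo4. In females it gave -0.091 to 0.065 for Lmo1 and -0.051 to 0.12 for Ldb1. For the interaction it gave -0.064 to 0.20 for Lmo1, -0.21 to 0.031 for Ldb1 and -0.0021 to 0.23 for Lmo2. For wildtype sex it gave -0.016 to 0.42 for Lmo3 and -0.10 to 0.065 for Ldb1. The cause was not tested.

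Wildtype and mutant libraries of a sex were correlated after subtracting the mean of each group from each gene. Same-numbered libraries gave -0.21, 0.01 and 0.29 in males and 0.21, 0.21 and 0.14 in females. Different-numbered libraries ran from -0.37 to 0.44, both in males. Whether the numbers pair libraries was not settled by these values. With the replicate block, Lmo2 differed by 0.53 in both sexes, and the genes called went from 4 to 1. The block could not be fitted for female against male wildtype. Over both sexes DESeq2 called 15 genes, the fit with the set term 9, and that without the lens-rich libraries 0.

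With 35 to 104 reads per library Lmo3 is the least precise member, and 3 pools per group limit every value within a sex.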
